A study of Mus musculus with 12 samples.

Results

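Marrow stromal cells sorted from p53 knockout mice were compared with the same cells sorted from p53 wild-type mice. The comparison uses 6 of the 12 libraries of the study, 3 labelled KO MSC and 3 labelled WT MSC, and leaves out the 6 tumor libraries. Genes were taken from the deposited stabilized table where they also stood in the second deposited table, which gave 18949 of 24421 genes, of which 18948 varied among the 6 libraries and were tested. The study also profiled sarcomas that arose in or near the marrow of knockout mice, which are not described here. WT MSC libraries came from freshly isolated cells of mice labelled wild type for p53, and KO MSC libraries from freshly isolated cells of mice labelled knockout. In both groups the cells were gated as negative for CD45, Ter119 and CD31, which mark blood cells, red cell precursors and endothelium, and as positive for LepR, the leptin receptor, and CD140a, the product of Pdgfra. The allele, any Cre driver, the strain and the age of the mice are not stated in the sources at hand, nor is the number of mice behind each library.

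LepR+ CD140a+ cells are fibroblast-like cells that lie around the sinusoids of the marrow. They secrete Cxcl12, Kitl and Csf1, which hold and feed blood stem cells and their progeny, they deposit much of the marrow's collagen and basement membrane, and they can form bone and fat cells. p53 is a transcription factor that responds to DNA damage and other stress, switching on inhibitors of the cell cycle such as Cdkn1a, its own brake Mdm2 and genes of cell death. Cells that lack it can keep dividing under conditions that stop normal cells.

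Values are on the deposited stabilized log2 scale, where 1 unit is about a doubling for well-expressed genes and genes with few reads flatten to a floor. Of the 18948 genes, 5.76%, 27.2% and 28.9% sat at the floor in WT MSC 1, 2 and 3, and 3.88%, 30.6% and 36.3% in the libraries labelled KO MSC 1, 2 and 3. Libraries numbered 1 shared their floor values with each other, and libraries numbered 2 and 3 shared others, so they are called batch 1 and batch 2, a division read from the values and not from the labels. The library labelled KO MSC 3 stood apart, with a median value of 5.89 where the other 5 lay between 6.69 and 6.95, and with correlations across genes of 0.797 and 0.865 with the other 2 knockout libraries, where wild-type libraries correlated at 0.939 to 0.974. The libraries labelled KO MSC 1 and 2 correlated at 0.93 with each other, and their highest correlations with a wild-type library were 0.956 and 0.945. Rn45s, the precursor of ribosomal RNA, was at 16.78, 16.39 and 16.05 in WT MSC 1, 2 and 3, compared with 17.92, 17.50 and 19.75 in the knockout libraries, highest in the library labelled KO MSC 3. The total counts behind the values are not known, so no counting interval is given.

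Trp53, the gene for p53, was within the wild-type range in the library labelled KO MSC 1 and just below it in the library labelled KO MSC 2. It was at 9.96, 10.04 and 10.61 in WT MSC 1, 2 and 3, compared with 10.49, 9.77 and 6.96 in the libraries labelled KO MSC 1, 2 and 3. The groups overlapped, and only the library labelled KO MSC 3 was below all wild-type libraries by more than 1 unit. The difference of -1.13 ± 0.84 (SE, n = 3 and 3) gave a two-sided exact permutation p of 0.4, where the smallest possible with these libraries is 0.1, and it was -0.08 without the library labelled KO MSC 3 and -1.84 without the library labelled KO MSC 1. Which exons were deleted is not given, and a value per gene also counts reads from exons that remain, so these values neither prove nor refute the deletion. All directions below rest on the labels.

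No gene passed the test between the groups, so the differences below are described by their size, by how far the libraries overlapped and by how many members of a gene list lay on each side. Genes of stromal identity, elastic fibers and matricellular proteins, collagen modification and growth factor reception were lower in the libraries labelled KO MSC, and genes of ribosomes and mitochondrial respiration were higher. Limma called 0% of 18948 genes at an adjusted p under 0.05 (lowest adjusted p = 0.551, limma). At an unadjusted p under 0.05 limma gave 8.64% of genes, 487 higher (2.57%) and 1150 lower (6.07%), and with library weights, whose estimation did not converge, 2447 genes passed after adjustment. With each library centred on its own median, which moved the median difference of all genes up by 0.42, the split turned to 1489 higher and 493 lower. The 1150 lower genes numbered 439 without WT MSC 2, 629 without WT MSC 3 and 1887 without the library labelled KO MSC 1. The 487 higher genes numbered 55 without WT MSC 2, 199 without WT MSC 3, and 1027, 303 and 763 without the libraries labelled KO MSC 1, 2 and 3. No overlap between groups was seen in 15.2% of genes, 8.93% lower and 6.31% higher.

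The 12 lower genes whose difference stayed largest when any 1 library was left out were mostly secreted or extracellular matrix proteins. Trf, the plasma iron carrier transferrin (chromosome 9, 103204001 to 103230444, minus strand), was at 14.58, 14.05 and 14.43 in WT MSC 1, 2 and 3, compared with 12.91, 10.36 and 10.39 in the libraries labelled KO MSC 1, 2 and 3, a difference of -3.14 ± 0.74 (SE, n = 3 and 3). Prelp, a proteoglycan that ties basement membrane to collagen, was at 13.33, 13.03 and 12.65 against 11.85, 9.41 and 7.92. Clu, the secreted chaperone clusterin, was at 13.64, 13.13 and 13.21 against 11.66, 10.31 and 9.63. In all 3 the library labelled KO MSC 1 was nearest to wild type. No knockout value reached the wild-type range, but the rule admitted only genes without overlap, here and where its genes are named again below. Most list members named below were chosen for the smallest unadjusted p of their list. That choice favors genes without overlap, so their lack of overlap is no separate result. The basement membrane chains Lamb1, Col4a2 and Col4a1, the beaded filament collagens Col6a2 and Col6a1, the growth factor Tgfb3, the cytokine inhibitor Socs2, the antiviral gene Ifit1 and the collagen receptor subunit Itga11 completed the set, with differences from -2.98 for Tgfb3 to -2.58 for Socs2.

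Among the 12 higher genes chosen by the same rule, 8 were histone H2A genes of the Hist1 cluster on chromosome 13, with Hist1h2ap at 9.28, 8.96 and 10.44 in WT MSC 1, 2 and 3, compared with 11.02, 12.19 and 12.98 in the libraries labelled KO MSC 1, 2 and 3. These genes have nearly identical coding sequences, so reads could be divided among them and the values of single copies are uncertain. Over all 13 Hist1h2a genes, a set chosen after values were seen, 12 were higher with a median of 2.02, and over 66 clustered histone genes 62 were higher with a median of 0.60; after the adjustment for transcript length described below the medians were 1.31 and 0.09. The ribosomal protein genes Rps2 (1.93 ± 0.41) and Rps27a (2.16 ± 0.65) and Srgn, the proteoglycan of secretory granules in blood cells (1.91 ± 0.54; SE, n = 3 and 3), were also among them. Srgn was at 9.53, 8.56 and 8.73 against 11.54, 9.77 and 11.23, without overlap, which the rule required. Hbb-b1, a beta globin gene with near-identical copies, had the largest difference, 4.08 ± 1.44, and its value in WT MSC 1 was 6.42 against 11.93 and 11.58 in WT MSC 2 and 3. Without WT MSC 1 its difference was 2.30. Another beta globin gene, Hbb-bs, showed the opposite in that library, 14.41 against 7.75 to 11.35 in the other 5. The level of one thus cannot be read apart from the other. The strain of the mice is not stated, and what set this library apart was not tested. Hbb-bs was looked up after the value of Hbb-b1 was seen. Each of the 24 genes kept its direction under the 3 other scalings. Upper-quartile and median scaling moved every difference by the same amount, 0.105 and 0.424, too little to turn differences of this size. That the genes also kept their direction with each library left out was fixed by the rule that chose them.

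**Figure D1:**
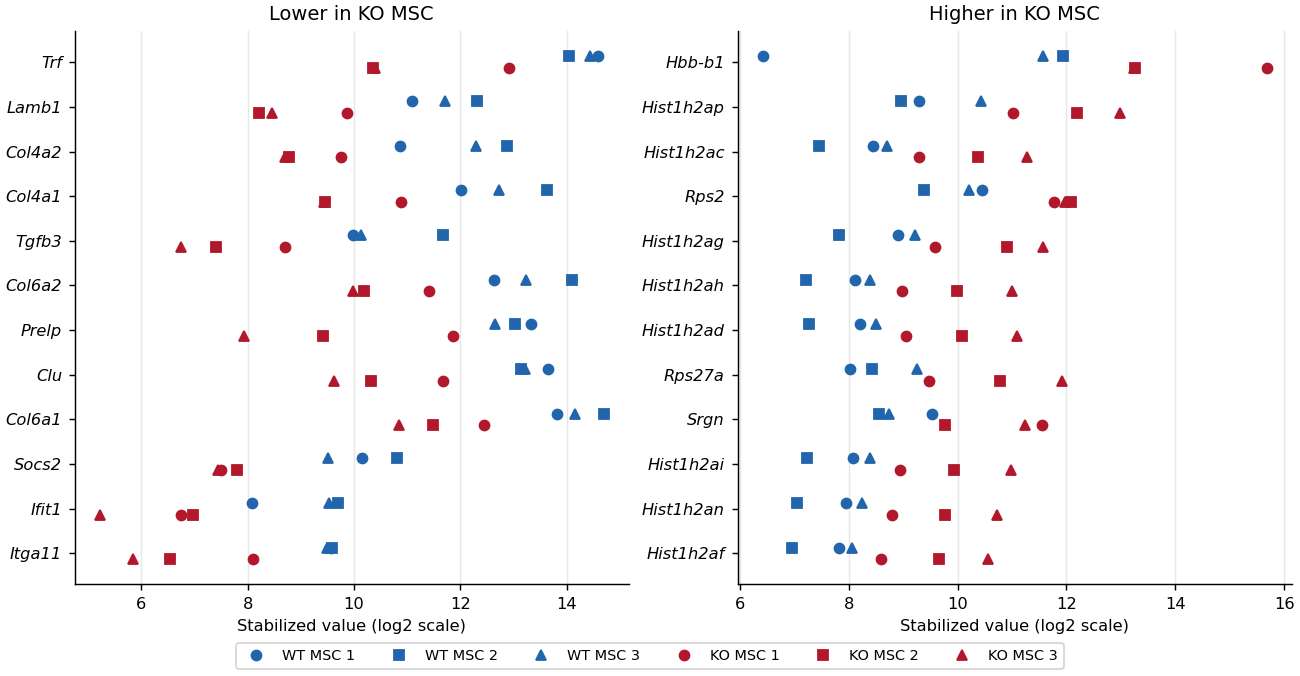
Stabilized value (x axis, log2 scale) of the 12 lower and 12 higher genes named by rule, 1 row a gene and 1 point a library, with blue for WT MSC, red for KO MSC and the shape for the library number. Every row shows the red points on one side of the blue ones, which the rule required. For Trf, Prelp and Clu the red circle of the library labelled KO MSC 1 (12.91, 11.85 and 11.66) lies nearest to the blue points.

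Genes that define LepR+ stromal cells were lower as a group. Of 30 stromal identity genes 29 were lower, where 53.6% of all genes were, with a median difference of -1.41 beside -0.01 over all genes tested. Limma gave 18 as lower at an unadjusted p under 0.05, 60% beside 6.07% of all genes. The median was -1.47 within batch 1 and -1.39 within batch 2, and 29 and 28 of the 30 were lower without the libraries labelled KO MSC 3 and KO MSC 1. In bulk samples, fewer stromal cells among those sorted and less RNA of these genes per cell cannot be told apart.

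Lepr, the receptor by which the cells were gated, was at 15.60, 14.84 and 14.56 in WT MSC 1, 2 and 3, compared with 14.12, 13.24 and 11.63 in the libraries labelled KO MSC 1, 2 and 3. Pdgfra, the other gate gene, was at 11.38, 11.81 and 11.62 against 9.93, 9.79 and 9.11, a difference of -2.0 ± 0.38 (SE, n = 3 and 3). Neither gene overlapped between the groups, so both transcripts of the positive gate were lower in every knockout library, although both remained well above the floor there. Ptprc, the gene of the negative gate CD45, was at 6.08, 6.42 and 5.69 against 7.60, 5.69 and 5.69, highest in the library labelled KO MSC 1, and Pecam1, that of CD31, at 4.76, 5.81 and 5.46 against 5.46, 5.46 and 5.46. Both overlapped and were at the floor in WT MSC 3 and in the libraries labelled KO MSC 2 and 3. The floor of a gene differs between batches. WT MSC 1 and the library labelled KO MSC 1 were above theirs in both genes, so equal Pecam1 values across batches do not mean equal levels. Ebf1, a transcription factor that maintains the marrow stromal program, was at 11.40, 10.80 and 10.41 against 9.76, 8.65 and 8.77. Cxcl12, the chemokine that retains blood stem cells, was at 19.89, 17.69 and 17.15 against 18.08, 17.29 and 17.69, and it overlapped: the library labelled KO MSC 3 was level with WT MSC 2.

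Factors that feed blood cells were lower in most but not all cases. Of 22 blood niche factors 18 were lower, with a median of -0.95 (-1.39 in batch 1 and -0.84 in batch 2). Limma gave 10 as lower at an unadjusted p under 0.05, 45.5% beside 6.07% of all genes. Csf1, the growth factor of macrophages and osteoclasts, was at 11.92, 12.58 and 11.86 in WT MSC 1, 2 and 3, compared with 9.83, 10.73 and 10.29 in the libraries labelled KO MSC 1, 2 and 3. Kitl, stem cell factor, was at 11.60, 11.81 and 11.59 against 10.48, 11.25 and 10. Neither overlapped, and the library labelled KO MSC 2 was the nearest to the wild-type range in both. Angpt1, the ligand that quiets endothelium, Bmp4, Fgf7, Igf1 and the Notch ligand Jag1 were also lower without overlap, with differences of -2.05, -2.10, -1.23, -0.98 and -1.19. Igf1 was the most even of these, at 10.71 to 10.89 in wild type and at 9.76 to 9.89 in the knockout libraries.

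Receptors of growth factors and cytokines and the brakes of the JAK-STAT pathway lay on the same side. JAK kinases bound to cytokine receptors activate STAT transcription factors, and SOCS proteins made in response shut the receptors off. Of 37 growth factor and cytokine receptors 32 were lower (median -0.92, and -0.84 and -1.10 in batches 1 and 2). An unadjusted p under 0.05 was reached by 18 lower ones, 48.6% beside 6.07% of all genes. Pdgfrb, the second PDGF receptor, was at 13.52, 13.97 and 14.02 in WT MSC 1, 2 and 3, compared with 12.09, 11.66 and 10.83 in the libraries labelled KO MSC 1, 2 and 3. Egfr, the EGF receptor, was at 10.38, 9.85 and 10.21 against 8.93, 7.86 and 7.08, and Lifr, the receptor of leukemia inhibitory factor, at 12.27, 13.20 and 12.10 against 10.71, 10.66 and 10.68. Pdgfrb and Egfr were lowest in the library labelled KO MSC 3, whereas Lifr was nearly equal in the 3 knockout libraries. All 21 JAK-STAT genes were lower, 6 of them at an unadjusted p under 0.05, 28.6% beside 6.07% of all genes. Their median of -0.95 was -1.52 without the library labelled KO MSC 1. Within batch 1 their median was -0.42 and within batch 2 -1.38. Socs2, an inhibitor of growth hormone and cytokine receptors, was at 10.14, 10.80 and 9.51 against 7.50, 7.79 and 7.44, with an SD of 0.19 over the knockout libraries. Socs3 (-1.59), Stat2 (-2.14) and Stat3 (-1.84) did not overlap either.

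Basement membranes are sheets of laminin, type IV collagen and nidogen on which endothelium and stromal cells rest, and fibrillar collagens, elastic fibers and proteoglycans fill the space between cells. Genes of this matrix and of its assembly were lower in the libraries labelled KO MSC, with the widest share among elastic fiber and matricellular proteins, 38 of 40. Their median was -1.16, and -0.96 and -1.30 in batches 1 and 2, and 36 of the 40 were lower in both batches. Of 29 enzymes that modify and crosslink collagen 25 were lower (median -1.14), of 29 integrins and laminins 21 (median -0.89), of 16 small leucine-rich proteoglycans 14 (median -0.61), and of 40 matrix proteases and inhibitors 33 (median -0.67). At an unadjusted p under 0.05, 19 of the 40 elastic fiber and matricellular genes, 14 of the 29 enzymes, 10 of the 29 integrins and laminins, 7 of the 16 proteoglycans and 14 of the 40 proteases and inhibitors were lower, and none of these lists held a higher one. These shares ran from 34.5% for integrins and laminins to 48.3% for the enzymes, beside 6.07% of all genes. Within batches 1 and 2 the medians were -1.15 and -1.04 for the enzymes, -1.07 and -0.65 for proteoglycans and -0.85 and -0.79 for proteases, but -0.19, with 12 of 29 higher, and -1.06 for integrins and laminins. Without WT MSC 2 the median of integrins and laminins was -0.52, and without the library labelled KO MSC 2 that of proteoglycans was -1.19.

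Most collagen genes were lower, and 23 of the 43 held a floor value in at least 1 library. Of 43 collagen genes 33 were lower, 15 at an unadjusted p under 0.05, 34.9% beside 6.07% of all genes. Their median of -0.63 was -0.26 without the library labelled KO MSC 3 and -0.17 within batch 1. Col4a1, a chain of the basement membrane network (chromosome 8, 11198423 to 11312826, minus strand), was at 12.01, 13.64 and 12.73 in WT MSC 1, 2 and 3, compared with 10.87, 9.46 and 9.44 in the libraries labelled KO MSC 1, 2 and 3. Col4a2, its partner on the other strand of the same locus (11312805 to 11449287), was at 10.86, 12.87 and 12.28 against 9.76, 8.78 and 8.69. The 2 annotations overlap at their starts and the kit does not mark strand, so reads there cannot be assigned to one of them. The differences of Col4a1 and Col4a2 were -1.14 and -1.10 in batch 1 and -3.73 and -3.84 in batch 2. Col6a1, of the beaded filament that surrounds basement membranes, was at 13.81, 14.69 and 14.15 against 12.44, 11.49 and 10.85. Its knockout values stayed below the wild-type range, lowest in the library labelled KO MSC 3.

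Assembly and attachment genes followed the structural chains. Adamts2, which trims procollagen, was at 13.31, 13.16 and 12.97 in WT MSC 1, 2 and 3, compared with 11.61, 10.82 and 9.66 in the libraries labelled KO MSC 1, 2 and 3. Loxl1, a crosslinker of elastin, was at 10.82, 12.33 and 11.32 against 9.36, 9.47 and 9.74, and Loxl2 and the collagen prolyl hydroxylase P3h2 differed by -2.14 and -2.39. Ltbp3, which stores latent TGF-beta in the matrix, was at 9.35, 10.83 and 11.00 against 8.20, 8.44 and 6.98. Nid2, which joins laminin to collagen IV, differed by -1.94 and the laminin chains Lamb1 and Lamb2 by -2.85 and -1.92. Mmp14, a membrane protease that opens collagen, was at 10.80, 11.95 and 12.02 against 9.80, 9.74 and 8.20. Itga11, a subunit of a collagen receptor, was at 9.50 to 9.58 in wild type and at 8.11, 6.55 and 5.85 in the knockout libraries. In none of these genes did a knockout value reach the wild-type range. Their choice by smallest p favored this, and for Lamb1 and Itga11 the rule required it. For Ltbp3, Mmp14 and Itga11 the library labelled KO MSC 3 was the lowest.

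Ligands, receptors and effectors of several developmental pathways were mostly lower. Of 48 Wnt pathway genes 40 were lower (median -0.61, and -0.69 and -0.62 in batches 1 and 2). An unadjusted p under 0.05 was reached by 12 lower ones, 25% beside 6.07% of all genes. The effector Tcf7l2 was at 9.83, 10.26 and 9.99 in WT MSC 1, 2 and 3, compared with 8.33, 8.29 and 7.58 in the libraries labelled KO MSC 1, 2 and 3, and the secreted antagonist Sfrp1 at 9.74, 9.72 and 9.46 against 8.26, 8.08 and 8.44. Of 48 TGF-beta and BMP genes 36 were lower, 13 (27.1%) at an unadjusted p under 0.05 (median -0.54, and -0.74 and -0.53). The ligand Tgfb3 was at 9.98, 11.67 and 10.14 against 8.70, 7.41 and 6.74, and the coreceptor Tgfbr3 differed by -1.64. Of 21 VEGF and angiopoietin genes 16 were lower, 9 (42.9%) at an unadjusted p under 0.05 (median -0.80). Angpt2, a context-dependent antagonist of Angpt1, was at 9.96, 10.80 and 10.68 against 8.39, 8.71 and 7.95, and Nrp1, a coreceptor of VEGF and semaphorins, at 12.19, 12.71 and 12.12 against 10.86, 9.90 and 9.14. The 2 angiopoietins with opposing actions on endothelium were lower together. Of 18 IGF pathway genes 14 were lower, with a median of -0.47 that was -0.31, -0.71 and -0.88 without the libraries labelled KO MSC 2, 1 and 3; Igfbp3, which binds IGF in the extracellular space, was at 11.77, 11.98 and 12.29 against 9.96, 10.71 and 9.88.

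Notch genes were divided, and most guidance genes were lower. Of 24 Notch pathway genes 14 were lower and 10 higher (median -0.21, which turned to 0.01 with quantile scaling and 0.21 with median centring). At an unadjusted p under 0.05, 7 were lower, 29.2% beside 6.07% of all genes, and 0 higher. The target Heyl (-1.94) and the receptors Notch1 (-2.33), Notch2 (-2.04) and Notch3 (-1.03) did not overlap between the groups. Of 55 axon guidance genes, many of which also act between stromal and endothelial cells, 44 were lower, 11 of them (20%) at an unadjusted p under 0.05. Their median was -0.32, and -0.58 without WT MSC 1 and 0.10 with median centring.

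Genes of the fat and smooth muscle fates open to these cells were lower in most cases, those of bone were near the background, and those of cartilage were split. Of 28 osteoblast genes 18 were lower, 64.3% beside 53.6% of all genes. At an unadjusted p under 0.05, 2 were lower and 1 higher. These 7.14% and 3.57% lay near the background of 6.07% and 2.57% of all genes. The median of -0.41 turned to 0.01 with median centring. It was -0.21, -0.91 and -0.10 without the libraries labelled KO MSC 1, 2 and 3. Dlx5, a homeobox factor of bone formation, was at 8.73, 8.74 and 8.82 in WT MSC 1, 2 and 3, compared with 7.11, 8.06 and 6.59 in the libraries labelled KO MSC 1, 2 and 3. Of 28 adipocyte genes 22 were lower, 7 at an unadjusted p under 0.05, 25% beside 6.07% of all genes. Their median was -0.40, and -0.69 without WT MSC 1 and 0.02 with median centring. Zfp423, a factor that commits cells to fat, was at 9.34, 9.44 and 9.09 against 7.95, 7.37 and 7.22, and Pparg, which drives fat cell formation, at 10.27, 9.94 and 9.46 against 8.71, 8.23 and 7.80. All 3 regulators were lower in each knockout library than in any wild-type one. Cartilage genes were split, 10 lower and 8 higher of 18, and of 21 smooth muscle and pericyte genes 17 were lower (median -0.45; -0.27, -0.92 and -0.74 without the libraries labelled KO MSC 1 and KO MSC 3 and WT MSC 1). Their contractile members Smtn and Myl9 differed by -2.53 and -1.94.

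**Figure D2:**
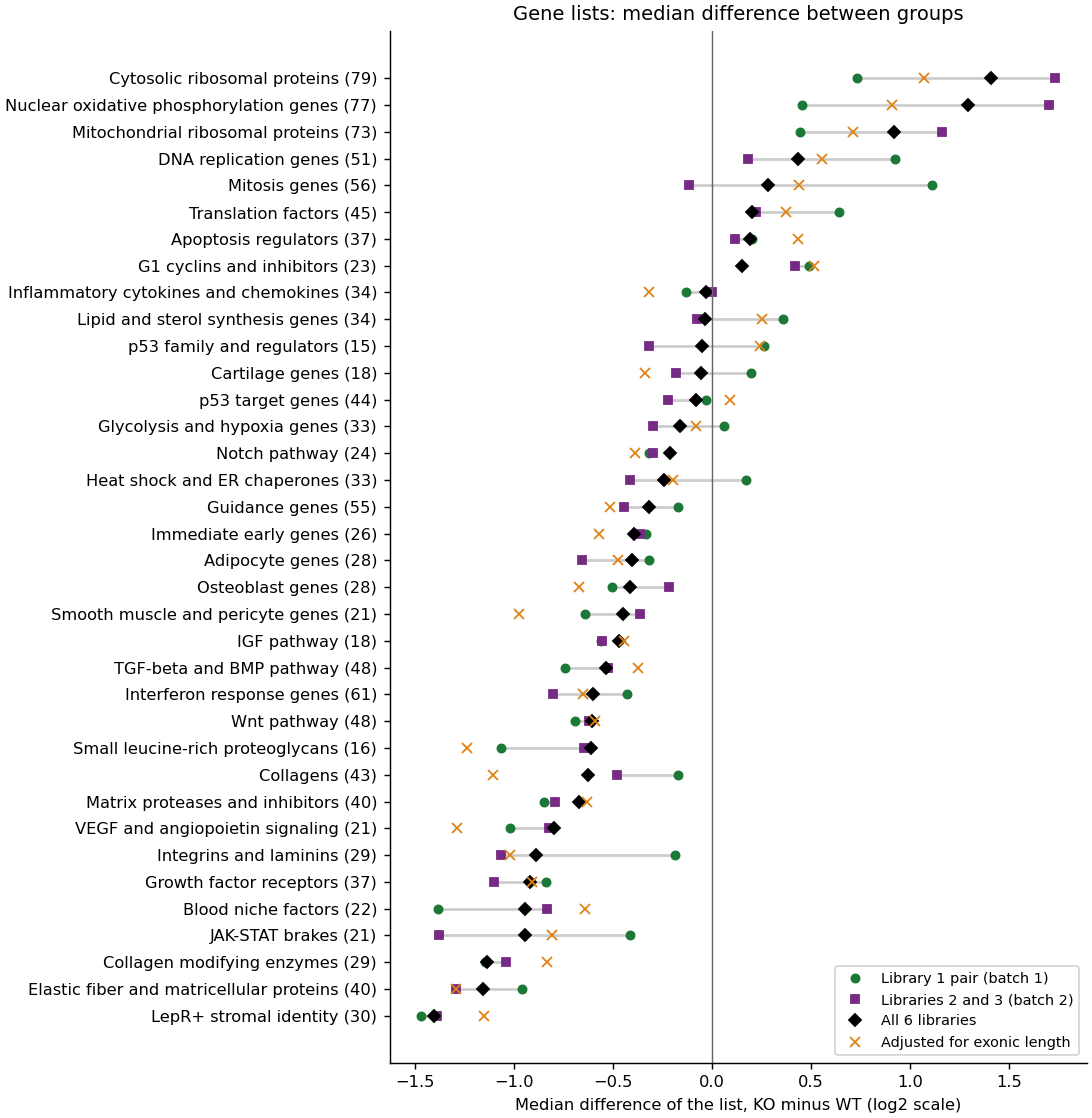
Median difference between KO MSC and WT MSC (x axis, log2 scale) over the tested members of 36 gene lists, with the number of members in brackets, for all 6 libraries (black), within batch 1 (green), within batch 2 (purple) and after adjustment for exonic length in genes with no floor value (orange). Stromal identity lies at -1.41 and cytosolic ribosomal proteins at 1.41 with both batches on the same side, whereas mitosis genes lie at 1.11 in batch 1 and -0.12 in batch 2. Of all 46 lists 15, with medians from -0.41 to -0.03, changed sign under at least 1 other scaling.

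Interferon response genes, which cells keep at a low tonic level without infection, were lower. Of 61 members 52 were lower, with a median of -0.60 (-0.43 and -0.80 in batches 1 and 2). Unadjusted p was under 0.05 in 18 lower ones, 29.5% beside 6.07% of all genes, and in no higher one. Without the libraries labelled KO MSC 3 and KO MSC 1, 56 and 49 of the 61 were lower. Many of these genes carry an interferon-stimulated response element, the letters GAAA, 2 bases of any kind and GAAA again, which factors activated by interferon bind. Searched on both strands from 250 bases before to 50 after the start in RefSeq promoters (GRCm38.p6), it stood in at least 1 promoter of 23 of the 46 interferon genes that had one, 50%, and of 3.9% of 13755 tested genes. The 23 genes with a match had a median of -0.75 and 22 were lower, and the 23 without had a median of -0.47 and 17 were lower, a description without a test. Shown are bases before the start, 5′ to 3′ on the gene's strand, of the 4 members with a match there and the smallest unadjusted p, whole for Ifit1 and cropped for the others, with matches in capitals (TTTC, 2 bases and TTTC where the match is on the other strand).
Ifit1, chr19:34640639-34640888, plus strand: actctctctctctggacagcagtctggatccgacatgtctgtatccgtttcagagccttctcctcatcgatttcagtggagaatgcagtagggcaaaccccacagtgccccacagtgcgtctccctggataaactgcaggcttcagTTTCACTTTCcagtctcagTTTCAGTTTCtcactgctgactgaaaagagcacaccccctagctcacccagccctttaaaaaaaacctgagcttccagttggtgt
Stat2, chr10:128270251-128270310, plus strand: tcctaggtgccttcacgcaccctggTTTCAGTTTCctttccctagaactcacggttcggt
Irgm2, chr11:58214888-58214947, plus strand: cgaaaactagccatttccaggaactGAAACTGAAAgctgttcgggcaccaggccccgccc
Gbp2, chr3:142620579-142620638, plus strand: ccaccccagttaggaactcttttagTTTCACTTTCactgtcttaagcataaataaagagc

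Ifit1, which binds foreign RNA, holds 2 matches that begin 104 and 85 bases before the start, and none of the matches shown overlapped another motif searched. It was at 8.07, 9.71 and 9.54 in WT MSC 1, 2 and 3, compared with 6.75, 6.96 and 5.22 in the libraries labelled KO MSC 1, 2 and 3, a difference of -2.79 ± 0.66 (SE, n = 3 and 3). Stat2, which encodes a transcription factor of the interferon response, was at 8.87, 9.42 and 9.08 against 8.18, 6.85 and 5.93. The GTPase genes Irgm2 and Gbp2, chosen for their matches and p after values were seen, were at 10.04, 10.09 and 9.73 against 8.86, 8.95 and 8.88, and at 9.19, 9.87 and 9.85 against 7.90, 8.17 and 4.72. All 4 were lower in each knockout library than in any wild-type one, with Irgm2 nearly equal in the 3 knockout libraries and Gbp2 lowest in the library labelled KO MSC 3. The antiviral gene Oasl2 was at 9.36, 10.36 and 9.93 against 8.11, 7.19 and 7.87.

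Genes of the protein synthesis and respiration machinery were higher in the libraries labelled KO MSC. Of 79 cytosolic ribosomal protein genes 75 were higher, where 46.4% of all genes were, and 33 were so at an unadjusted p under 0.05, with a median of 1.41. Of 73 mitochondrial ribosomal protein genes 72 were higher, 17 at an unadjusted p under 0.05 (median 0.92), and of 77 nuclear genes of oxidative phosphorylation 74, 7 at that level (median 1.29). The shares higher at that level in these lists were 41.8%, 23.3% and 9.09%, beside 2.57% of all genes. The medians were 0.73, 0.45 and 0.46 within batch 1 and 1.73, 1.16 and 1.70 within batch 2, and without the library labelled KO MSC 3 they were 0.90, 0.54 and 0.59. Without that library 76 of 79, 72 of 73 and 74 of 77 genes were higher. Without the library labelled KO MSC 1 the median of oxidative phosphorylation genes was 2.02.

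Rpsa, of the small ribosomal subunit, was at 11.59, 10.85 and 11.42 in WT MSC 1, 2 and 3, compared with 12.66, 12.47 and 12.97 in the libraries labelled KO MSC 1, 2 and 3. Rps27a, which is made as a fusion with ubiquitin, was at 8.02, 8.43 and 9.26 against 9.47, 10.79 and 11.92, and Rps12 at 8.31, 8.28 and 8.65 against 9.02, 10.39 and 11.40. Rpsa was about as high in each knockout library, while Rps27a and Rps12 were highest in the library labelled KO MSC 3. Ribosomal protein genes have many processed pseudogenes, which may take some of their reads. Ndufv1, of respiratory complex I, was at 11.70, 10.72 and 11.07 against 12.25, 12.24 and 13.01, and Cyc1, of complex III, at 11.31, 10.61 and 11.27 against 11.997, 12.23 and 13.18. Mrpl28, of the large mitochondrial subunit, was at 10.44, 9.73 and 10.36 against 11.00, 11.24 and 11.61. In these 3 genes no knockout value reached the wild-type range and the library labelled KO MSC 3 was highest. Of 45 translation factors 28 were higher, 10 at an unadjusted p under 0.05, 22.2% beside 2.57% of all genes. Their median was 0.20, and 0.38 without WT MSC 3 and 0.42 without the library labelled KO MSC 3. Among them Eif3i differed by 1.32 ± 0.41 and the nucleolar methyltransferase gene Fbl by 1.29 ± 0.43 (SE, n = 3 and 3).

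The length of the transcript moved with these differences. Among 6110 genes with a mean of 8 or more and no floor value, the median difference was 1.11 in 147 genes with up to 1000 exonic bases, 0.73, 0.18 and -0.21 in the classes up to 2000, 4000 and 8000, and -0.52 in 889 longer genes. Across these genes, which share libraries and are not independent, Spearman's rho of the difference with exonic length was 0.01 in batch 1 and -0.48 in batch 2. By library, rho of the value minus the wild-type mean was -0.03, -0.35 and -0.47 for the libraries labelled KO MSC 1, 2 and 3, and -0.11 to 0.07 for wild type. Cytosolic ribosomal protein genes have a median exonic length of 1770 bases and stromal identity genes one of 5878 bases, so both lists lie on the side of their length. After each library was adjusted for the trend with length, the median was 1.07 for cytosolic ribosomal proteins, 0.71 for mitochondrial ones, 0.91 for oxidative phosphorylation, -1.15 for stromal identity, -1.29 for elastic fiber and matricellular proteins and -0.65 for interferon response genes. Of these, 32 of 77 cytosolic ribosomal protein genes were higher and 15 of 28 stromal identity genes lower at an unadjusted p under 0.05 in the adjusted fit, beside 5.02% and 6.74% of its 11251 genes, and limma called 0 genes there (lowest adjusted p = 0.365, limma). What produced the trend with length was not tested.

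**Figure D3:**
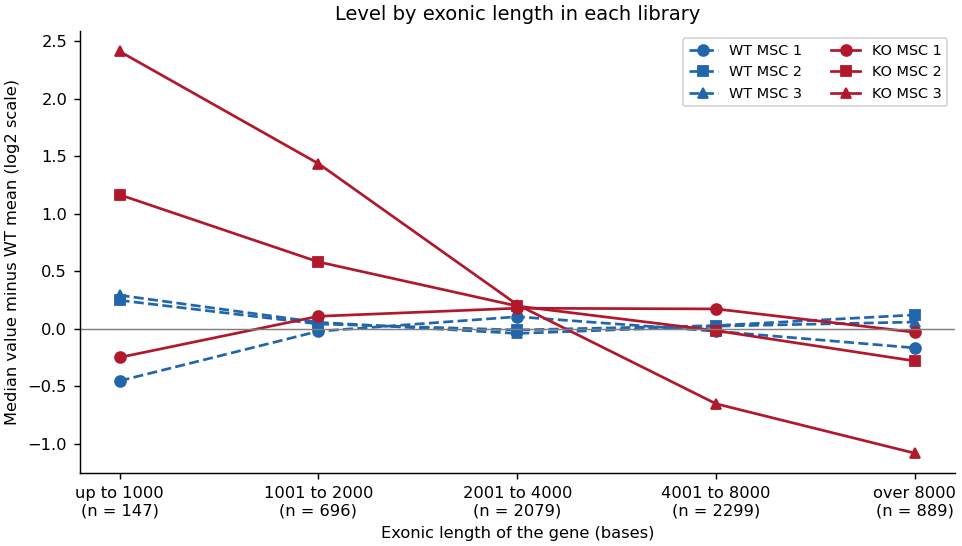
Median over genes of the value minus the wild-type mean of the gene (y axis, log2 scale) by class of exonic length in bases (x axis), 1 line a library, with blue for WT MSC and red for KO MSC, over genes with a mean of 8 or more and no floor value. The library labelled KO MSC 3 runs from 2.41 in the shortest class to -1.08 in the longest and the library labelled KO MSC 2 from 1.17 to -0.28, whereas the other 4 stay between -0.45 and 0.29.

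Cell cycle genes were higher in the library labelled KO MSC 1 against its batch and divided in batch 2. Of 56 mitosis genes 32 were higher, 10 at an unadjusted p under 0.05 (median 0.28), and of 51 DNA replication genes 36, 12 at that level (median 0.43), and none of either list was lower at that level. These shares were 17.9% and 23.5%, beside 2.57% of all genes. Within batch 1 the medians were 1.11 and 0.92, and within batch 2 -0.12 and 0.18. Without the library labelled KO MSC 3, 52 of 56 mitosis and 50 of 51 replication genes were higher (medians 0.93 and 1.09), and without the library labelled KO MSC 1, 24 of 56 and 26 of 51 (medians -0.18 and 0.01). Without WT MSC 2 the medians were -0.02 and 0.02, and without WT MSC 1 and WT MSC 3 that of replication genes was 0.68 and 0.70. The median of mitosis genes thus changed sign without WT MSC 2 and without the library labelled KO MSC 1, and that of replication genes came close to 0 without either. Cdk1, the kinase that starts mitosis (chromosome 10), was at 9.82, 8.50 and 10.31 in WT MSC 1, 2 and 3, compared with 10.95, 11.70 and 11.88 in the libraries labelled KO MSC 1, 2 and 3. Birc5, survivin, was at 9.94, 8.77 and 10.20 against 10.94, 11.43 and 11.36, and Pcna, the sliding clamp of DNA polymerase, at 10.70, 9.38 and 10.39 against 11.48, 11.86 and 11.41. In all 3 genes WT MSC 2 was the lowest library and the groups did not overlap. Among 23 G1 genes 13 were higher (median 0.15; 0.30, 0.25, 0.32 and 0.64 without WT MSC 2, WT MSC 3 and the libraries labelled KO MSC 1 and 3), with Cdk4, the kinase that carries cells through G1, at 11.98, 10.97 and 11.59 against 12.67, 12.40 and 13.002. Gmnn, Orc6 and Tyms of DNA replication and Mad2l1 and Cenpa of the kinetochore did not overlap either, with differences from 1.25 for Orc6 to 1.67 for Cenpa.

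Mitotic genes often carry the cell cycle homology region TTTGAA, through which the DREAM complex represses them in resting cells and which p53 acts on through Cdkn1a. In the same search it stood in promoters of 32 of 47 mitosis genes, 68.1%, and of 16% of 13755 tested genes, and the letters CCAAT in 74.5% and 41.9%. The median difference was 0.27 both for the 32 mitosis genes with a match and for the 15 without. Shown in the same way, with matches in capitals (TTCAAA on the other strand), are the 3 members with a match before the start and the smallest unadjusted p, whole for Cdk1.
Cdk1, chr10:69352913-69353162, minus strand: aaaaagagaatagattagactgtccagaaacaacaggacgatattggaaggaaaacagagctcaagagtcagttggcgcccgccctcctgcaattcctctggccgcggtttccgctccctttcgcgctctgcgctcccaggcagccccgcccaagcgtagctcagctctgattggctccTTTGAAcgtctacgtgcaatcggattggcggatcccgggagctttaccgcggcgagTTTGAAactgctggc
Bub3, chr7:131560302-131560357, plus strand: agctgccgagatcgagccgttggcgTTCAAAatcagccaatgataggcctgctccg
Cks1b, chr3:89418292-89418393, minus strand: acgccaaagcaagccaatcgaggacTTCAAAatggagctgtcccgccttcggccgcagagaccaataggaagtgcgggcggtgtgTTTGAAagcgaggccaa

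Cdk1 holds matches that begin 71 and 15 bases before the start, and Cks1b holds 2, 1 on each strand. Bub3, of the spindle checkpoint, was at 11.22, 10.59 and 11.02 against 11.93, 11.96 and 12.36, and Cks1b, a small partner of cyclin-dependent kinases, at 9.32, 9.09 and 10.25 against 10.19, 11.24 and 12.06, where the library labelled KO MSC 1 overlapped WT MSC 3; both were chosen for their matches and p after values were seen. The palindrome TCCC, 2 bases of any kind and GGGA, bound by EBF factors, was found in 0 of 20 stromal identity promoters and in 1.21% of tested genes, which says only that these letters are not in those windows.

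Direct targets of p53 showed no common direction. Of 44 targets 23 were lower and 21 higher, with a median of -0.08 that was -0.20 without WT MSC 2 and without the library labelled KO MSC 1, -0.01 without WT MSC 3, 0.004 without the library labelled KO MSC 2 and 0.01 without the library labelled KO MSC 3, and that turned to 0.03, 0.10 and 0.34 with upper-quartile, quantile and median scaling. At an unadjusted p under 0.05, 4 were lower and 0 higher, a share lower of 9.09% beside 6.07% of all genes, which is near the background. Cdkn1a, the inhibitor p21, was at 8.15, 10.13 and 9.43 in WT MSC 1, 2 and 3, compared with 7.39, 9.38 and 11.40 in the libraries labelled KO MSC 1, 2 and 3, so the knockout libraries held both the lowest and the highest value. Mdm2, the ubiquitin ligase that degrades p53, was at 9.03, 8.52 and 8.73 against 9.29, 9.01 and 8.63. Both genes overlapped, and their differences of 0.15 ± 0.98 and 0.21 ± 0.37 (SE, n = 3 and 3) were smaller than their errors. The 4 lower ones were Sulf2 (-1.03), Ephx1, an epoxide hydrolase, at 10.68, 10.29 and 9.79 against 8.94, 9.13 and 8.93, Pltp, a phospholipid carrier, at 10.38, 10.57 and 10.41 against 9.21, 9.62 and 9.35, and the drug pump gene Abcb1a (-2.07), which was at the floor in the libraries labelled KO MSC 2 and 3. Bax, which opens mitochondria in cell death, was at 9.45, 9.21 and 9.39 against 9.69, 9.82 and 11.07, without overlap and with a difference of 0.84 ± 0.45. Of 37 apoptosis regulators 26 were higher and 11 lower (median 0.19, and 0.36 without the library labelled KO MSC 1). At an unadjusted p under 0.05, 1 was higher, Birc5, a share of 2.7% beside 2.57% of all genes, which is near the background. Among p53 regulators Mdm4, which inhibits p53, was at 8.42, 8.12 and 8.15 against 8.97, 8.45 and 9.47.

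Markers of blood cells that the gate should remove were present in both groups. The mean of 18 erythroid markers ranged from 9.74 to 11.87 in wild type and from 10.24 to 12.42 in the knockout libraries. The mean of 19 neutrophil and granulocyte markers ranged from 6.60 to 8.97 and from 7.22 to 10.43, highest in the library labelled KO MSC 1. Of the 18 erythroid markers 16 were higher (median 0.70) and of the 19 neutrophil markers 15 (median 0.56), and the groups overlapped in both means. Within batches 1 and 2 the medians were 0.92 and 0.93 for erythroid markers, and 1.57, with 18 of 19 higher, and 0.06 for neutrophil markers. The medians without single libraries ranged from 0.09 without WT MSC 2 to 1.44 without WT MSC 1 for erythroid markers, and from -0.38 to 1.78 for neutrophil markers, where the lowest was without the library labelled KO MSC 1 and the highest without the library labelled KO MSC 3. S100a8, an abundant neutrophil protein, was at 10.44, 9.71 and 7.39 in WT MSC 1, 2 and 3, compared with 12.20, 10.55 and 10.51 in the libraries labelled KO MSC 1, 2 and 3. The part of these cells in the higher ribosomal, respiratory and cell cycle values and in the lower stromal values was not tested. Means of macrophage (6.30 to 7.26 and 6.52 to 7.14), B cell (5.66 to 5.87 and 5.45 to 6.06), T and NK cell (5.14 to 5.31 and 5.06 to 5.46) and endothelial markers (5.64 to 6.19 and 5.48 to 5.95) also overlapped between wild-type and knockout libraries. Of 20 endothelial markers 1, 9 and 10 were at the floor in WT MSC 1, 2 and 3, and 0, 13 and 14 in the libraries labelled KO MSC 1, 2 and 3, among them Cdh5 and Kdr in every library of batch 2. Other members of these lists were expressed: Egfl7, an endothelial secreted protein, was at 7.57, 6.79 and 7.92 against 8.36, 8.77 and 9.18, without overlap, and Eng, a TGF-beta coreceptor, at 8.95, 9.83 and 10.22 against 9.49, 8.54 and 6.20. Of 16 T and NK cell markers 4, 12 and 14 against 4, 13 and 13 were at the floor, Cd3e in all 6 libraries, whereas the granule gene Nkg7 was at 7.84, 8.604 and 6.45 against 10.39, 7.76 and 5.63. Egfl7, Eng and Nkg7 were chosen after their values were seen.

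**Figure D4:**
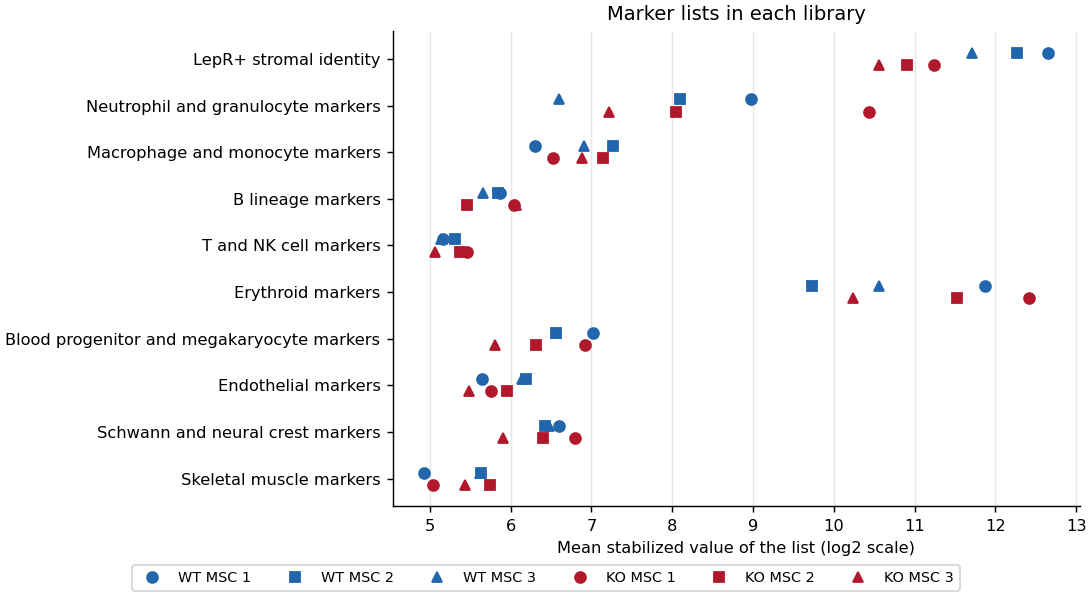
Mean stabilized value (x axis, log2 scale) of stromal identity genes and of marker lists of other cells, 1 point a library, with blue for WT MSC, red for KO MSC and the shape for the library number. Of the lists plotted, only stromal identity has all red points (10.56 to 11.24) below all blue ones (11.71 to 12.66), and the neutrophil markers are highest in the library labelled KO MSC 1 (10.43).

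The difference between the libraries numbered 1 was compared with that of batch 2, which shares no library with it. Over 11715 genes with no floor value the 2 differences had a Pearson r of 0.145 and the same sign in 52.8% of genes, and over the 3675 of them with a mean of 9 or more, 0.283 and 61.6%. Of 921 such genes that were at least 1 unit higher in batch 2, 81% were higher in batch 1, where 63.6% of all of them were, and of 687 that were at least 1 unit lower, 55.7% were lower, where 36.4% of all were. Over all 11715 genes, 46.1% of the 2932 that were at least 1 unit lower in batch 2 were lower in batch 1, where 40.3% of all were, and 76.4% of the 1599 that were at least 1 unit higher were higher, where 59.7% of all were. Of the 30 stromal identity genes 23 were lower in both batches, of the 40 elastic fiber and matricellular genes 36 and of the 61 interferon genes 31, and 72 of the 79 cytosolic ribosomal protein genes were higher in both. Of the 56 mitosis genes 24 were higher in both batches and 0 lower in both.

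**Figure D5:**
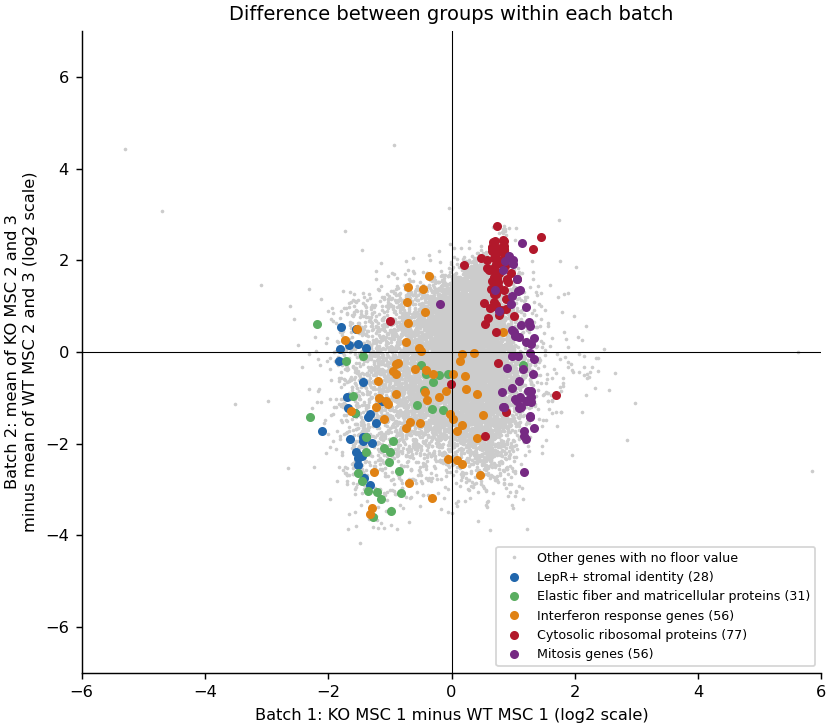
Difference between KO MSC and WT MSC in batch 1 (x axis, library 1 of each group) against that in batch 2 (y axis, means of libraries 2 and 3), both on the log2 scale, 1 point a gene with no floor value, with 5 lists in color and 2 genes outside the axes. Most cytosolic ribosomal protein genes lie in the upper right and most elastic fiber and matricellular genes in the lower left, while mitosis genes lie on the right on both sides of 0.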

How the data were processed

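RNA-seq was made from 3 WT MSC and 3 KO MSC libraries with the SMART-Seq v4 and NEBNext kits, which do not mark strand, per the labels' protocols. TopHat2 2.0.13, Cufflinks 2.2.1, Cuffdiff and mm10 are named in the submitters' processing notes, and for other steps the tool is not given in the sources used here. Stabilized log2 values per gene make up the table the authors deposited. The second deposited table of the authors holds a score that equals the stabilized value times 100, rounded and divided by a factor, in 100% of values (tolerance 0.01), and served to choose genes and as an alternative. Neither holds counts, so depth per library is unknown and limits low genes most. A floor value is the lowest value of a gene where libraries of a batch share it exactly. Over all libraries of the study, 9803 genes had a floor in both batches. In each of them the 2 floors lay symmetrically about 4.75, shifted by up to 1.92. The deposited values thus carry a shift per gene between batches, as after a batch adjustment, which the sources used here do not describe.

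The groups were compared with limma 3.58.1 (trend, Benjamini-Hochberg adjustment) in R 4.3.3 over 18948 genes, and Python 3.11.15 and matplotlib 3.10.9 served for motifs and figures. The fit was tested on simulated data. Whether each library is from its own animals is not stated in the labels, and p-values then cover just the spread between libraries, which may be technical. They take no account of the shift between batches described above. Named genes were, among genes with ordinary symbols, no overlap between groups, an unadjusted p under 0.05 and a mean of at least 9 in the higher group, the 12 per direction whose smallest difference with any 1 library left out was largest. From each list, as many as 4 members were added by smallest p, with a mean of at least 7 in the higher group, as were Trp53, Cdkn1a, Mdm2, Cxcl12, Kitl and the gate genes. Markers named only as lying at the floor, and Sulf2, were chosen after values were seen. The 46 lists (1433 genes, 1399 tested), the members and the rules were chosen with earlier results of these data known. Positions and exonic lengths (18103 genes, 95.5%) are from GENCODE M21 and promoters from RefSeq, both on GRCm38, the build called mm10. Alternatives were other scalings, gene filters, tables, moderation, a batch term, a replicate block, library weights, a length adjustment and each library left out. The 6 tumor libraries were not used.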

Additional observations from a re-analysis of the deposited data

How the results depend on the processing

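Under limma 0 genes passed an adjusted p of 0.05 in every alternative run except library weights, with 2447 genes. The number of genes lower at an unadjusted p under 0.05, 1150, became 493 with median centring, 3034 with library weights and 758 with length adjustment, an alternative chosen after seeing the data in which fewer genes were tested, and it ranged from 439 to 1887 when single libraries were left out. The number higher, 487, became 1489 with median centring, 2442 with library weights, 829 with a batch term and 776 with moderation without a trend, and ranged from 55 to 1027 when single libraries were left out. The cause of these moves was not tested. The difference of Trp53 ranged from -1.84 to -0.08 when single libraries were left out.

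With the replicate number as a block, 0 genes passed after adjustment by limma, and 979 were lower and 551 higher at an unadjusted p under 0.05. Deviations of same-numbered libraries from their group means correlated at 0.238, 0.152 and -0.148 for numbers 1, 2 and 3. Deviations from a mean of 3 libraries constrain each other, so these values do not decide whether the number pairs the libraries.

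These genes, whose groups overlapped, changed the sign of their difference. Cdkn1a was at -0.08 with quantile scaling and -0.22 with library weights, and ranged from -0.85 to 1.16 when single libraries were left out. Cxcl12 was at 0.067 with libraries 2 and 3 alone and ranged from -1.11 to 0.26 when single libraries were left out. Hbb-bs was at 0.25 with median centring, 2.81 with library weights and 2.99 with libraries 2 and 3 alone, and ranged from -1.29 to 2.04. Pecam1 was at -0.066 with library weights and -0.17 with libraries 2 and 3 alone, and ranged from -0.17 to 0.35. Ptprc was at -0.12 and -0.36 with the same alternatives and ranged from -0.37 to 0.58, and Xist ranged from -2.32 to 0.36. Nkg7 was at -0.83 with libraries 2 and 3 alone and -0.34 with length adjustment, and ranged from -0.93 to 1.45. The median of a list moved by more than the spread between libraries in 96 pairs of a list and an alternative, and by less in 778. Depth is unknown, so low and floor values limit every comparison of low genes.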

Other observations

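Metabolic and stress genes held single members with steady differences but no common direction under every scaling. Of 33 glycolysis and hypoxia genes 19 were lower (median -0.16, which turned to 0.26 with median centring). Epas1, a hypoxia-inducible transcription factor, was at 10.68, 12.15 and 11.62 in WT MSC 1, 2 and 3, compared with 9.43, 8.92 and 9.87 in the libraries labelled KO MSC 1, 2 and 3. Pgk1, a glycolytic kinase, lay the other way, at 8.91, 9.15 and 9.07 against 9.73, 9.97 and 9.90, and neither gene overlapped. Of 33 heat shock and ER chaperones 22 were lower, 4 at an unadjusted p under 0.05, 12.1% beside 6.07% of all genes. Their median of -0.24 turned to 0.18 with median centring. Hsp90b1, which folds secreted proteins in the ER, was at 11.52, 13.53 and 13.06 against 11.20, 11.46 and 9.61. Of 34 inflammatory genes 18 were lower (median -0.03, which turned to 0.08, 0.05 and 0.39 with upper-quartile, quantile and median scaling). Icam1, an adhesion receptor for leukocytes, was at 10.73, 10.35 and 9.95 against 8.99, 9.24 and 8.84, without overlap.

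Xist, which is expressed from the inactive X chromosome, was at 7.90, 9.83 and 9.93 in WT MSC 1, 2 and 3, compared with 8.66, 5.13 and 10.51 in the libraries labelled KO MSC 1, 2 and 3. Ddx3y, on the Y chromosome, was at 8.48, 4.45 and 4.45 against 7.22, 9.24 and 4.45, with the floor in WT MSC 2 and 3 and in the library labelled KO MSC 3. Both genes were chosen after their values were seen. Both were well above their lowest value in the libraries numbered 1 of each group.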
